A study of Mus musculus with 46 samples.

Results

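The left ventricle of C57BL/6J (C57) mice was compared between infarct tissue and noninfarct tissue 1 day after the left coronary artery had been ligated, on 8 arrays out of 46 in the series. The members were chosen by their labels alone: 4 arrays of C57 infarct tissue at day 1 and 4 arrays of C57 noninfarct tissue at day 1, each labelled a biological replicate. The mice were males of 15 to 20 weeks, and the tie was placed 1.5 mm under the atrial appendage of the left side. A biopsy punch divided the opened heart, so that infarct tissue held the infarct with its border, while noninfarct tissue came from the same hearts away from the punch. Unoperated C57 mice (day 0, 3 arrays per region), C57 mice at day 5 (4 per region) and MRL/MpJ (MRL) mice at day 1 (4 per region), a strain studied for its wound healing, are drawn on only where they show how the C57 day 1 difference stands. At day 0 the word infarct names the anterior-apical region of a heart without ligation. No sham-operated group was used here. The labels do not name the heart of an array, so the main fit treats the arrays as unpaired.

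When a coronary artery is closed, heart muscle downstream loses oxygen and dies, and the material it releases starts an inflammatory reaction in the surviving cells. Neutrophils enter within the first day, drawn by CXC chemokines and held at the vessel wall by selectins, and monocytes follow under CC chemokines. Surviving cells at the border respond with immediate early transcription factors, chaperones and hypoxia-induced genes, and reduce genes of oxidative metabolism.

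Values are log2 of the deposited GCRMA intensity per probe set. Each gene is given by 1 probe set, the tested one whose mean over the 46 arrays was highest. A change is the mean of the 4 infarct arrays minus the mean of the 4 noninfarct arrays, given ± SE from the limma fit. A gene is said to have risen or fallen only where the Benjamini-Hochberg adjusted p over 13138 tested probe sets lay under 0.05, which is also what called means below. Both tissues carried heart muscle: Tnnt2, cardiac troponin T, had 15.10, 15.12, 14.81 and 14.80 in infarct tissue, against 15.22, 15.18, 15.12 and 15.11 in noninfarct tissue, where array medians lay between 4.22 and 4.48. None of 10 cardiomyocyte markers was called, and their median change was -0.20 (the median over all 7760 genes tested was -0.02). On the single arrays that marker list stood at -0.01, 0.01, -0.50 and -0.30 for infarct replicates 1 to 4, against 0.04, -0.06, -0.02 and 0.03 for noninfarct replicates 1 to 4, relative to the noninfarct mean of each gene. Infarct replicates 3 and 4 thus stood below the other arrays. These 2 arrays also lay apart on the first principal component of the 8 arrays (51.9% of the variance), at 79.3 and 53.3, where infarct replicates 1 and 2 lay at -8.5 and -7.3 and noninfarct arrays between -43.3 and -6.4. The part of the tissue punch in this spread was not tested. In unsorted tissue, fewer cells of a type and less RNA per cell cannot be told apart. The difference between 3′ and 5′ Gapdh probe sets, a sign of RNA integrity, was 0.02 ± 0.28 in infarct tissue and -0.13 ± 0.14 in noninfarct tissue (SD, n = 4 each, exact permutation test, two-sided, p = 0.46, where the smallest possible p was 0.0286). The same measure for Actb was 1.39 ± 0.09 in infarct tissue and 1.17 ± 0.24 in noninfarct tissue (SD, n = 4 each, same exact permutation test, p = 0.14). Its part in the results was not tested.

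Of 13138 probe sets 960 were called (7.31%): 516 were higher in infarct tissue (3.93%) and 444 lower (3.38%). The rises were larger than the falls: among the higher probe sets 330 rose by more than 1 on the log2 scale and 98 by more than 2, against 187 and 16 that fell by as much. By gene, 318 rose (4.10% of 7760) and 268 fell (3.45%), and of these 216 and 142 had no array of infarct tissue overlapping those of noninfarct tissue. Called or not, 399 genes lay without overlap higher (5.14%) and 487 lower (6.28%). Set against the unoperated regions, the called rises lay mostly in infarct tissue. For the 516 higher probe sets the median change was 1.54 in infarct tissue at day 1 against the same region at day 0, and 0.36 in noninfarct tissue, where 24% and 2.55% of all probe sets were called against day 0, while for the 444 lower ones it was -0.91 and -0.16. These medians share their arrays with the region comparison and are no separate evidence for it. The count of 960 depended on single arrays. It was 282 without infarct replicate 3, 417 without infarct replicate 4, 376 without noninfarct replicate 1 and 399 without noninfarct replicate 3, but 1930 without infarct replicate 2 and 2198 without 3 arrays of day 5 that stood apart and enter here only through the estimate of spread. On the 8 arrays alone, where the other groups add nothing to the estimate of spread, 85 of the 127 called genes named below lost their call.

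Many called genes lay near the floor of the measurement in one tissue, where the size of a change depends on how low values are treated. With 16 added to each intensity before log2, 17 of the 127 genes changed by less than their value given here divided by 1.5, and with 32 added 38 did. Changes against a tissue at the floor are therefore sizes on this scale and no exact ratios. Over all genes tested 4.1% rose and 3.45% fell, the shares to set beside each list count below. Lists are counted over members that passed the filter on low values, which a gene can pass by being high in a single group. Those tested were 8 of 17 neutrophil markers on the array, 30 of 31 monocyte and macrophage markers, 19 of 26 chemokine genes, 24 of 28 interleukin genes, 20 of 25 immediate early genes, 17 of 23 fibrinolysis genes and 29 of 37 growth factors.

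**Figure D1:**
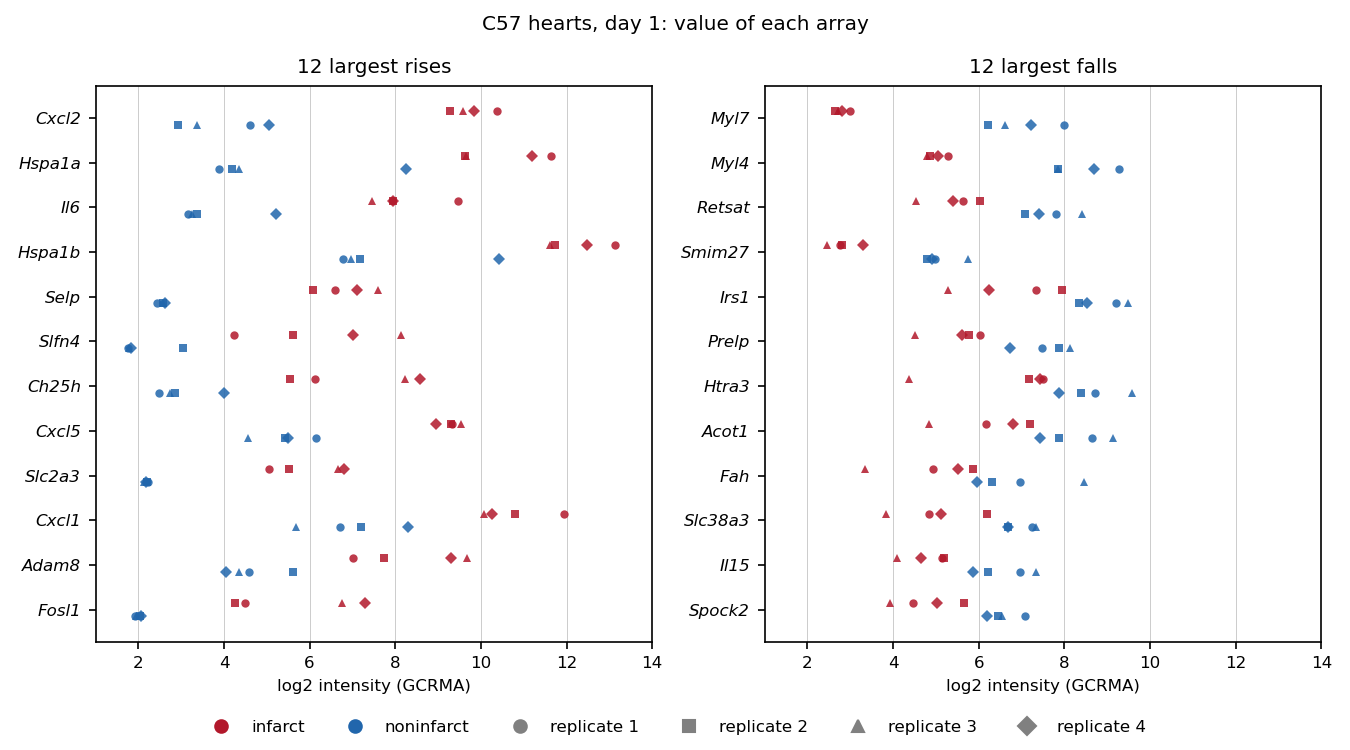
Value of each of the 8 arrays for the 12 genes with the largest rises (left) and the 12 with the largest falls (right) among called genes with no overlap between tissues. The horizontal axis is log2 intensity, colour gives the tissue and marker shape the replicate; all infarct points lie right of the noninfarct points on the left panel and left of them on the right panel.

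Chemokines that attract neutrophils were among the largest rises. Cxcl2, a ligand of the neutrophil receptor Cxcr2, had 10.37, 9.27, 9.57 and 9.83 in infarct tissue, against 4.60, 2.93, 3.37 and 5.04 in noninfarct tissue. Its lowest infarct array stood more than 4 above its highest noninfarct array, and it rose by 5.78 ± 0.81 (adjusted p 1.5e-05). Cxcl1, a ligand of the same receptor, had 11.94, 10.80, 10.07 and 10.25 in infarct tissue, against 6.70, 7.20, 5.67 and 8.29 in noninfarct tissue. It rose by 3.80 ± 0.78 (0.0024), with no overlap and the highest value on infarct replicate 1. Cxcl5, a further member of that group, rose by 3.86 ± 0.58 (4.2e-05), and its infarct arrays lay close together, between 8.94 and 9.53, against 4.57 to 6.15 in noninfarct tissue. The change of Cxcl2 was the largest of all genes as measured here, but that of Hspa1a was larger with 32 added (4.24, against 4.18 for Cxcl2) and without noninfarct replicate 4 (6.39, against 6.13 for Cxcl2).

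Of 17 neutrophil markers on the array 8 passed the filter on low values, of which 6 rose and none fell, with a median change of 2.85. The other 9, among them the receptor genes Cxcr2 and Csf3r, lay no higher than 5.27 on any infarct array and 3.85 on any noninfarct array. Without the filter 7 of 17 rose. The alarmin subunits S100a8 and S100a9, abundant in neutrophil cytosol, were present on every array of both tissues at day 1. S100a8 had 10.44, 10.99, 11.22 and 10.44 in infarct tissue, against 8.27, 7.29, 5.21 and 7.54 in noninfarct tissue, a rise of 3.70 ± 0.55 (3.7e-05), and S100a9 rose by 3.05 ± 0.49 (1e-04). Noninfarct tissue itself stood 3.87 for S100a8 and 4.70 for S100a9 above the unoperated region. Il1r2, the decoy receptor of interleukin 1 that mature neutrophils carry, had 7.78, 7.35, 7.96 and 7.67 in infarct tissue, against 4.47, 4.85, 4.24 and 4.61 in noninfarct tissue. It rose by 3.15 ± 0.29 and had the lowest adjusted p of the genes named here (6e-09), with no overlap between the tissues. Slfn4, an interferon-regulated Schlafen family gene of myeloid cells, rose by 4.15 ± 0.54 (4.7e-06), but its infarct arrays ranged widely, from 4.23 on replicate 1 to 8.13 on replicate 3. The lectin receptor Clec4d rose by 2.66 ± 0.75 (0.024) and the formyl peptide receptor Fpr2 by 2.12 ± 0.47 (0.0051). The tested markers that were not called were the protease gene Mmp9 (1.20, adjusted p 0.097) and Lcn2, a granule protein that other stressed cells make as well. Lcn2 had 10.36, 11.05, 10.60 and 11.56 in infarct tissue and 10.25, 10.03, 11.19 and 9.87 in noninfarct tissue, so the groups overlapped and the difference of 0.56 ± 0.36 (0.33) was not called. Against day 0 it stood 8.20 higher in infarct tissue and 7.59 higher in noninfarct tissue. Adam8, a membrane protease of leukocytes, rose by 3.79 ± 0.82 (0.0041), and the platelet chemokine Ppbp by 2.27 ± 0.56 (0.012), with overlapping arrays. Without infarct replicate 3 the calls of Clec4d and Fpr2 ended (adjusted p 0.13 and 0.059), without noninfarct replicate 3 those of Clec4d and Ppbp (0.071 and 0.08), and without infarct replicate 4 or noninfarct replicate 1 that of Clec4d (0.09 and 0.073). With 32 added the changes of Slfn4, Fpr2 and Clec4d were 1.71, 0.82 and 1.65, and Clec4d was no longer called (0.052).

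Interleukin 6, interleukin 1 beta and their intracellular regulators rose, while most receptors of the families were not called: of 24 tested genes 8 rose and none fell (median 0.73). Il6 had 9.46, 7.94, 7.46 and 7.94 in infarct tissue, against 3.15, 3.36, 3.25 and 5.21 in noninfarct tissue. The groups did not overlap, noninfarct replicate 4 stood above the other noninfarct arrays, and the rise was 4.46 ± 0.87 (0.0015). Il1b had 7.54, 7.93, 8.35 and 7.43 in infarct tissue, against 4.02, 4.89, 4.08 and 4.30 in noninfarct tissue, a rise of 3.49 ± 0.54 (7.4e-05). Ptgs2, the inducible cyclooxygenase of prostaglandin synthesis, rose by 3.64 ± 0.56 (6.8e-05), with its other probe set at 1.38. Nfkbiz, a nuclear cofactor of NF-kappaB that acts on Il6, rose by 2.66 ± 0.61 (0.0064), Socs3, the feedback inhibitor of Il6 signalling, by 2.33 ± 0.56 (0.0092), the Il6-family cytokine Clcf1 by 1.05 ± 0.20 (0.0014), and Nfkbia, the cytosolic inhibitor that NF-kappaB itself induces, by 1.02 ± 0.25 (0.01). Ch25h, the enzyme that makes 25-hydroxycholesterol in activated myeloid cells, rose by 4.10 ± 0.60 (2.8e-05), with 8.23 and 8.57 on infarct replicates 3 and 4, against 6.12 and 5.55 on replicates 1 and 2 and 2.48 to 4.01 in noninfarct tissue. None of these calls was lost when a single array was left out, but Clcf1 and Nfkbia were not called on the 8 arrays alone (0.11 and 0.14). With 32 added the changes were 2.80 for Il6, 2.30 for Il1b, 2.33 for Ptgs2, 1.59 for Nfkbiz, 0.51 for Clcf1 and 2.16 for Ch25h.

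The promoters of 4 of these genes carried the letters of an NF-kappaB motif close to the start of the transcript, and they are printed to show where those letters lie. The letters GGGA and TTTCC with any 1 base between them were searched on both strands in the 250 bases before the start of each gene in RefSeq's promoter table (GRCm38.p6) and in the promoters printed no match of another motif searched overlaps the marked one. They were found in 0.337% of all 27025 promoters and in 0.349% of 6307 promoters of tested genes. Among 245 promoters of genes called higher, 4 held them (1.63%), which were Cxcl2, Cxcl1, Il6 and Nfkbia, and of 215 genes called lower 0 did, as a count with no test. Each sequence runs 5′ to 3′ on the strand of its gene and ends at the base before the start, with the motif in capitals: Cxcl2 at chr5:90903649-90903898 (plus strand, motif starting 97 bases before the start), Cxcl1 at chr5:90890995-90891244 (plus strand, 71 bases), Il6 at chr5:30012864-30013113 (plus strand, 44 bases) and Nfkbia at chr12:55492648-55492897 (minus strand, 29 bases, where the motif reads from the opposite strand).
Cxcl2: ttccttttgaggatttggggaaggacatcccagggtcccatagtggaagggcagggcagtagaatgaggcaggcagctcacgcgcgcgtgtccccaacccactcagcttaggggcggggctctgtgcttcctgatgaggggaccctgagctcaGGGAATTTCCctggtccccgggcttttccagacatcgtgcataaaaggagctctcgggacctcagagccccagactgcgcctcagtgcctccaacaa
Cxcl1: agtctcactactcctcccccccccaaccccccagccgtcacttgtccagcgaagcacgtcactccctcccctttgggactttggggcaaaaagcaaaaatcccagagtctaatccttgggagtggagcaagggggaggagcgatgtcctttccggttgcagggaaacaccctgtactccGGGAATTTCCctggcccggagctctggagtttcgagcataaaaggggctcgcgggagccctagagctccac
Il6: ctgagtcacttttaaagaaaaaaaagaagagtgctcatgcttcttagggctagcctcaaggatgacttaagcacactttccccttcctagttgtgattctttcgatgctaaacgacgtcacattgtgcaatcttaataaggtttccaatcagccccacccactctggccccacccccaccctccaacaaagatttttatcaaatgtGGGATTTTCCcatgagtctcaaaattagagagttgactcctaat
Nfkbia: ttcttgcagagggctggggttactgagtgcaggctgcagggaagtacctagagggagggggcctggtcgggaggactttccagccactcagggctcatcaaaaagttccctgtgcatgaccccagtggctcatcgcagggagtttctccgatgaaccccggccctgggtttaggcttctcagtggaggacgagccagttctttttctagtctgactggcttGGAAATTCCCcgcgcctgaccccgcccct
The AP-1 letters TGANTCA (N is any base) were in 10.2% of the promoters of genes called higher, 5.12% of those called lower, 4.5% of those of tested genes and 6.87% of all. The hypoxia response letters ACGTG were in 18%, 21.4%, 22.1% and 16.6% of the same sets. A match in letters is no evidence that a factor was bound.

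Chemokines for monocytes rose less evenly. Over all CXC and CC chemokines and receptors, 8 of 19 tested genes rose and 1 fell (median 0.73). Ccl2, the main attractant of monocytes that carry Ccr2, had 8.13, 8.41, 10.49 and 9.80 in infarct tissue, against 5.21, 8.01, 5.94 and 6.47 in noninfarct tissue. Infarct replicates 3 and 4 were high, noninfarct replicate 2 nearly reached the lowest infarct array, and Ccl2 rose by 2.80 ± 0.62 (0.0049). Ccl7 rose by 1.99 ± 0.53 (0.019), Ccl6 by 1.38 ± 0.38 (0.023), Ccl9 by 1.34 ± 0.37 (0.022) and the interferon-induced Cxcl10 by 0.73 ± 0.20 (0.024). Cxcl12, which retains cells that carry Cxcr4, fell by 0.63 on the log2 scale (SE 0.19, adjusted p 0.034), and its other probe set changed by -0.09. Of 30 monocyte and macrophage markers 5 rose and none fell (median 1.06). Arg1, arginase of reparative macrophages, had 5.53, 7.08, 10.91 and 9.34 in infarct tissue, against 2.83, 7.45, 3.11 and 2.27 in noninfarct tissue. Its groups overlapped through noninfarct replicate 2, and it rose by 4.30 ± 1.15 (0.019). The lipopolysaccharide coreceptor Cd14 rose by 3.52 ± 0.58 (0.00015), the signalling adaptor Tyrobp by 2.50 ± 0.60 (0.0094), the IgG receptor Fcgr3 by 1.96 ± 0.48 (0.011) and the lysosomal Laptm5 by 1.63 ± 0.47 (0.031). The lectin Lgals3 had 6.68, 6.77, 9.92 and 9.16 in infarct tissue and 5.27, 6.92, 5.80 and 4.73 in noninfarct tissue, and its difference of 2.45 ± 0.86 was not called (0.072). Without infarct replicate 3 the calls of Ccl7, Ccl6, Ccl9, Cxcl10, Arg1, Tyrobp, Fcgr3 and Laptm5 ended (adjusted p 0.074 to 0.17). Leaving out infarct replicate 4 ended all of these except Fcgr3 (0.051 to 0.11), noninfarct replicate 3 ended those of Ccl7, Ccl6, Ccl9, Cxcl10, Cxcl12, Arg1 and Laptm5 (0.052 to 0.17), and noninfarct replicates 1, 2 and 4 or infarct replicate 1 ended some of them and that of Cxcl12 (0.054 to 0.12). The calls of Ccl2 and Cd14 held without any of the 8 arrays, but Ccl2 was not called on the 8 arrays alone (0.11). Cxcl12 was not called with array weights (0.05) and Laptm5 not without the filter (0.054). With 32 added the changes of Arg1, Cd14, Ccl7 and Cxcl10 were 2.62, 2.33, 1.04 and 0.39.

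Myeloid genes and heart muscle genes moved with the same infarct arrays. The median of the monocyte and macrophage list, relative to noninfarct means, was 0.34, 0.03, 2.59 and 1.67 on infarct replicates 1 to 4, against -0.13, 0.26, 0.01 and -0.18 on noninfarct replicates. That of the neutrophil list was 2.17, 1.99, 3.57 and 3.02, against -0.08, 0.14, -0.30 and 0.04. The tested neutrophil genes, 8 of 17 on the array, were thus high on all infarct arrays as a median. Monocyte genes, of which 30 of 31 were tested, stood clearly above the noninfarct arrays on replicates 3 and 4. A gene can pass the filter by being high after infarction, so the 2 medians are not on equal terms. Those 2 arrays were also the lowest for calcium handling genes, at -1.31 and -1.15, where replicates 1 and 2 stood at -0.11 and -0.19 and noninfarct arrays between -0.09 and 0.08. Immediate early genes did not follow this order, with 1.40, 0.71, 1.20 and 1.25 on infarct replicates 1 to 4.

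**Figure D2:**
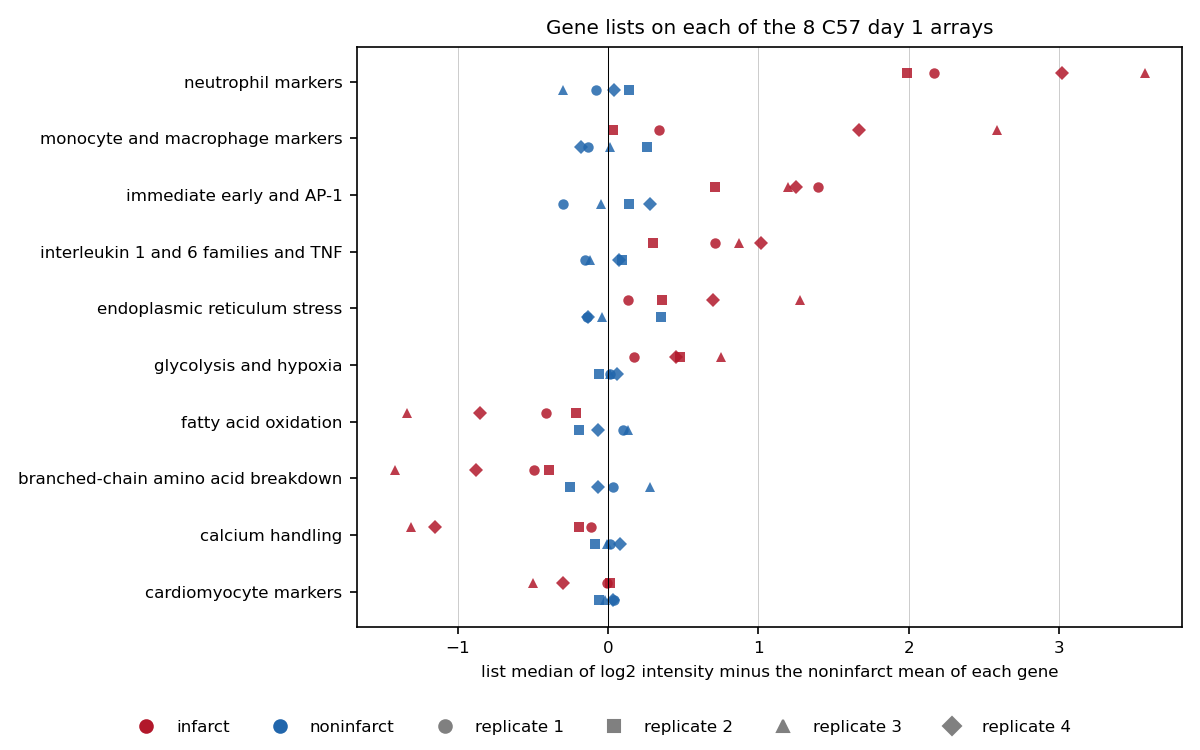
Median of each gene list on each C57 day 1 array. The horizontal axis is log2 intensity minus the noninfarct mean of each gene, colour gives the tissue and marker shape the replicate. Monocyte and macrophage genes stand at 2.59 and 1.67 on infarct replicates 3 and 4, which are also the lowest for calcium handling. Neutrophil genes, of which 8 of 17 on the array were tested, stand above 1.9 on all 4 infarct arrays.

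Among adhesion molecules of activated endothelium and general endothelial markers several rose and none fell. Selp, P-selectin, which slows leukocytes on the vessel wall, had 6.58, 6.07, 7.60 and 7.11 in infarct tissue, against 2.44, 2.57, 2.58 and 2.61 in noninfarct tissue. It was at the floor of the measurement on all noninfarct arrays, as on the arrays of unoperated hearts, and rose by 4.29 ± 0.51 (1.5e-06), a size that was 2.59 with 16 added and 1.97 with 32 added. Icam1, the ligand of leukocyte integrins, rose by 1.74 ± 0.38 (0.004) and Sele, E-selectin, by 1.45 ± 0.41 (0.026), with infarct replicate 4 within the noninfarct range. In the endothelial adhesion list 4 of 10 rose and none fell (median 0.59). Of 17 endothelial markers 4 rose (over all genes tested 4.1%) and 14 changed upwards (over all genes tested 3774 of 7760), with a median of 0.23. The called ones included Plvap, a protein of the diaphragms of leaky capillaries, by 1.86 ± 0.52 (0.024) and Cdh5, the junction cadherin, by 0.62 ± 0.19 (0.036), whose other probe set changed by -0.37. Pecam1, on all endothelial cells, differed by 0.00 ± 0.26. Leaving out 1 of the 8 arrays left 0 to 6 endothelial markers called higher, and the 8 arrays alone left 0. The calls of Sele, Plvap and Cdh5 ended without infarct replicate 3 (adjusted p 0.07 to 0.15), as they did without noninfarct replicate 1 (0.06 to 0.077), and some of them ended without any other single array (0.052 to 0.13). Those of Selp and Icam1 held without any of the 8 arrays, but Icam1 was not called on the 8 arrays alone (0.052). Sele was not called with offsets of 16 or 32 (0.67, adjusted p 0.052, and 0.45, 0.067) or with array weights (0.056), and Cdh5 not with arrays centred on their medians (0.068) or with weights (0.062).

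Of 17 genes of fibrinolysis and coagulation 6 rose and none fell (median 0.65). Plaur, the urokinase receptor, had 8.45, 6.94, 8.12 and 8.61 in infarct tissue, against 4.64, 5.03, 4.99 and 5.79 in noninfarct tissue, a rise of 2.92 ± 0.39 (9.8e-06). Thbd, thrombomodulin, which turns thrombin to an anticoagulant role, rose by 1.46 ± 0.30 (0.0026) and the protein C receptor Procr by 1.74 ± 0.49 (0.025). Tissue plasminogen activator Plat rose by 1.15 ± 0.29 (0.012), its cell surface partner Anxa2 by 1.21 ± 0.35 (0.03), with its other probe set at 0.30, and the protease inhibitor Tfpi2 by 1.26 ± 0.36 (0.026). Genes that limit clotting and a gene that dissolves clots were thus among those called. The calls of Procr, Tfpi2 and Anxa2 ended without infarct replicate 3 (adjusted p 0.17 to 0.18), infarct replicate 4 (0.1 to 0.16), noninfarct replicate 1 (0.077 to 0.12) or noninfarct replicate 3 (0.05 to 0.068), that of Anxa2 also without noninfarct replicate 4 (0.06), and that of Plat without noninfarct replicate 3 (0.06). With 32 added the changes of Tfpi2 and Procr were 0.49 and 1.05, and Procr was no longer called (0.054).

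Immediate early genes were high in infarct tissue at 1 day. Of 20 tested members of the list 10 rose and none fell (median 1.02). Fosl1, the AP-1 subunit Fra-1, had 4.50, 4.26, 6.75 and 7.29 in infarct tissue, against 1.92, 2.03, 1.95 and 2.06 in noninfarct tissue. It lay below the array median on every noninfarct array and rose by 3.71 ± 0.58 (8.2e-05), a size that was 1.88 with 16 added and 1.36 with 32 added. The small Maf factor Maff rose by 2.89 ± 0.54 (0.00088), Atf3, a stress-induced repressor, by 2.84 ± 0.50 (0.00037), Fos by 2.52 ± 0.75 (0.035), Myc by 2.43 ± 0.54 (0.0051), Junb by 1.90 ± 0.46 (0.01) and the survival factor Ier3 by 1.70 ± 0.33 (0.0015). Fos was highest on infarct replicate 1 (10.83, against 8.83 to 9.54 on the others) and ran from 5.61 to 8.06 in noninfarct tissue. Of 17 tested cell cycle inhibitors and p53 targets 3 rose and 1 fell, with a median change of 0.07. Gadd45g rose by 2.24 ± 0.52 (0.0072), Gadd45b by 1.79 ± 0.55 (0.039) and the kinase Plk2 by 1.50 ± 0.30 (0.0022), while the cyclin-dependent kinase inhibitor Cdkn2c fell by 0.96 (SE 0.28, adjusted p 0.033). Bhlhe40, a repressor of the clock, rose by 1.62 ± 0.32 (0.0015), as the single called gene of 13 in the clock list. No member of the cell cycle list was called (29 tested, median 0.09), and the proliferation marker Mki67 lay below every array median. Noninfarct replicate 1 decided the calls of Junb and Gadd45g (adjusted p 0.053 and 0.055 without it). The call of Myc ended without infarct replicate 3 (0.05), and those of Fos, Gadd45b and Cdkn2c ended without infarct replicates 3 or 4 or noninfarct replicates 1 or 3 (0.059 to 0.15) and in part without infarct replicate 1 or noninfarct replicates 2 or 4 (0.064 to 0.099). Fos was not called with array weights (0.077) or without the filter (0.062), Gadd45b not without the filter (0.069) or with 32 added (0.051), and Cdkn2c not without the filter (0.052) or with 16 or 32 added (0.055 and 0.079). With 32 added Maff changed by 1.56 and Cdkn2c by -0.54.

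The inducible 70 kDa heat shock proteins were among the 4 largest rises. Hspa1b had 13.13, 11.72, 11.61 and 12.47 in infarct tissue, against 6.77, 7.18, 6.97 and 10.42 in noninfarct tissue, a rise of 4.40 ± 0.65 (3.6e-05). Hspa1a had 11.63, 9.62, 9.66 and 11.20 in infarct tissue, against 3.88, 4.19, 4.34 and 8.24 in noninfarct tissue, a rise of 5.37 ± 0.95 (0.00045). Noninfarct replicate 4 stood far above the other noninfarct arrays for both, yet below the lowest infarct array. The 2 genes are neighbouring, near-identical copies, so their probe sets may share signal and the values of each copy are uncertain. The promoters of the pair matched at 247 of 250 bases (98.8%), and both held the letters GAANNTTC of a heat shock element, in capitals, 104 bases before the start. That of Hspa1b (GRCm38.p6 chr17:34959239-34959488, minus strand) is shown.
Hspa1b: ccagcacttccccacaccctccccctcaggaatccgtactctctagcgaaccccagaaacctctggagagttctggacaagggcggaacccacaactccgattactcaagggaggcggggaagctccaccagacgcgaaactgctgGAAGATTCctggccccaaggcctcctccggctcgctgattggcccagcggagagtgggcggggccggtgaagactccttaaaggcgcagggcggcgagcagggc
The same letters were in 3.27% of the promoters of genes called higher, 5.58% of those called lower, 5.14% of those of tested genes and 6.78% of all. Of 22 cytosolic chaperones and partners 8 rose and none fell (median 0.33). They included the Hsp70 partner Dnajb1 (1.66 ± 0.32, adjusted p 0.0011), the inducible Hsp90 gene Hsp90aa1 (1.25 ± 0.25, 0.0016), the nucleotide exchange factor Hsph1 (1.12 ± 0.29, 0.016) and the small heat shock protein Hspb1 (0.98 ± 0.22, 0.0051). The constitutive Hspa8 rose by 0.56 ± 0.16 (0.031) and Cryab, abundant in heart muscle, by 0.50 ± 0.16 (0.044). With arrays centred on their medians Hspa8 and Cryab were no longer called (0.053 and 0.09), nor was Cryab without the filter (0.051). Hspa8 was also not called with the replicate block (0.053), which pairs arrays by number alone and may join different hearts. Calls of Hsph1, Hspa8 and Cryab ended without infarct replicate 3 (0.083 to 0.17) or noninfarct replicate 1 (0.085 to 0.18), those of Hspa8 and Cryab without noninfarct replicate 3 (0.11 and 0.12), and some without infarct replicates 1 or 4 or noninfarct replicate 4 (0.052 to 0.13).

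In the endoplasmic reticulum stress list 6 of 22 genes rose and none fell (median 0.68). Beside Atf3 these were targets and members of the amino acid and unfolded protein responses: the pseudokinase Trib3 rose by 1.45 ± 0.26 (0.00047), the transcription factor Ddit3 by 0.99 ± 0.21 (0.0032), asparagine synthetase Asns by 1.64 ± 0.47 (0.028), the lumenal chaperone Hspa5 by 0.92 ± 0.22 (0.01) and Atf4, which drives several of them, by 0.81 ± 0.22 (0.019), with its probe sets between 0.17 and 1.57. Infarct replicate 3 was the highest array for Ddit3 and Hspa5 and for Asns, where it had 7.21, against 3.84 to 4.83 in noninfarct tissue. The calls of Asns, Atf4 and Hspa5 ended without it (adjusted p 0.18, 0.096 and 0.072). Those of Asns and Atf4 also ended without infarct replicate 4 (0.14 and 0.067) or noninfarct replicate 1 (0.086 and 0.09), and that of Asns without noninfarct replicates 3 or 4 (0.059 and 0.07). Trib3 and Asns changed by 0.64 and 0.94 with 32 added.

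Of 29 tested genes of glycolysis, glucose uptake and hypoxia 12 rose and none fell (median 0.41). Slc2a1, the basal glucose transporter GLUT1, had 10.21, 9.81, 11.62 and 11.29 in infarct tissue, against 7.73, 8.35, 8.40 and 8.09 in noninfarct tissue, a rise of 2.59 ± 0.35 (9.8e-06). Slc2a3, the high-affinity transporter GLUT3, lay between 2.14 and 2.23 on the noninfarct arrays, below every array median, and at 5.06 to 6.80 on the infarct arrays. The difference (3.82 ± 0.53, 1.5e-05) was 2.00 with 16 added and 1.44 with 32 added, and the other probe set of Slc2a3 changed by 2.32. Adm, the vasodilator adrenomedullin and a target of hypoxia-inducible factors, had 9.15, 9.41, 10.31 and 10.10 in infarct tissue, against 6.88, 6.98, 6.91 and 7.65 in noninfarct tissue, a rise of 2.64 ± 0.36 (1.2e-05). The lactate exporter Slc16a3 rose by 2.41 ± 0.45 (0.00087), Pfkfb3, which makes the activator of glycolysis fructose 2,6-bisphosphate, by 1.77 ± 0.34 (0.0012) with its other probe set at -0.08, the stress gene Ndrg1 by 1.72 ± 0.33 (0.0013), the prolyl hydroxylase Egln3 by 1.57 ± 0.32 (0.002) and the platelet phosphofructokinase Pfkp by 1.31 ± 0.32 (0.01). The other probe set of Pfkp changed by 0.84 and was not called. Hk1, hexokinase 1, rose by 0.65 ± 0.15 (0.008), with its other probe set at 0.45 and not called. Hif1a, the oxygen-regulated factor itself, rose by 0.79 ± 0.20 (0.015), with its probe sets between 0.12 and 0.96. The calls of Pfkp and Hif1a ended without infarct replicate 3 (adjusted p 0.064 and 0.084), and that of Hif1a with array weights (0.059).

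**Figure D3:**
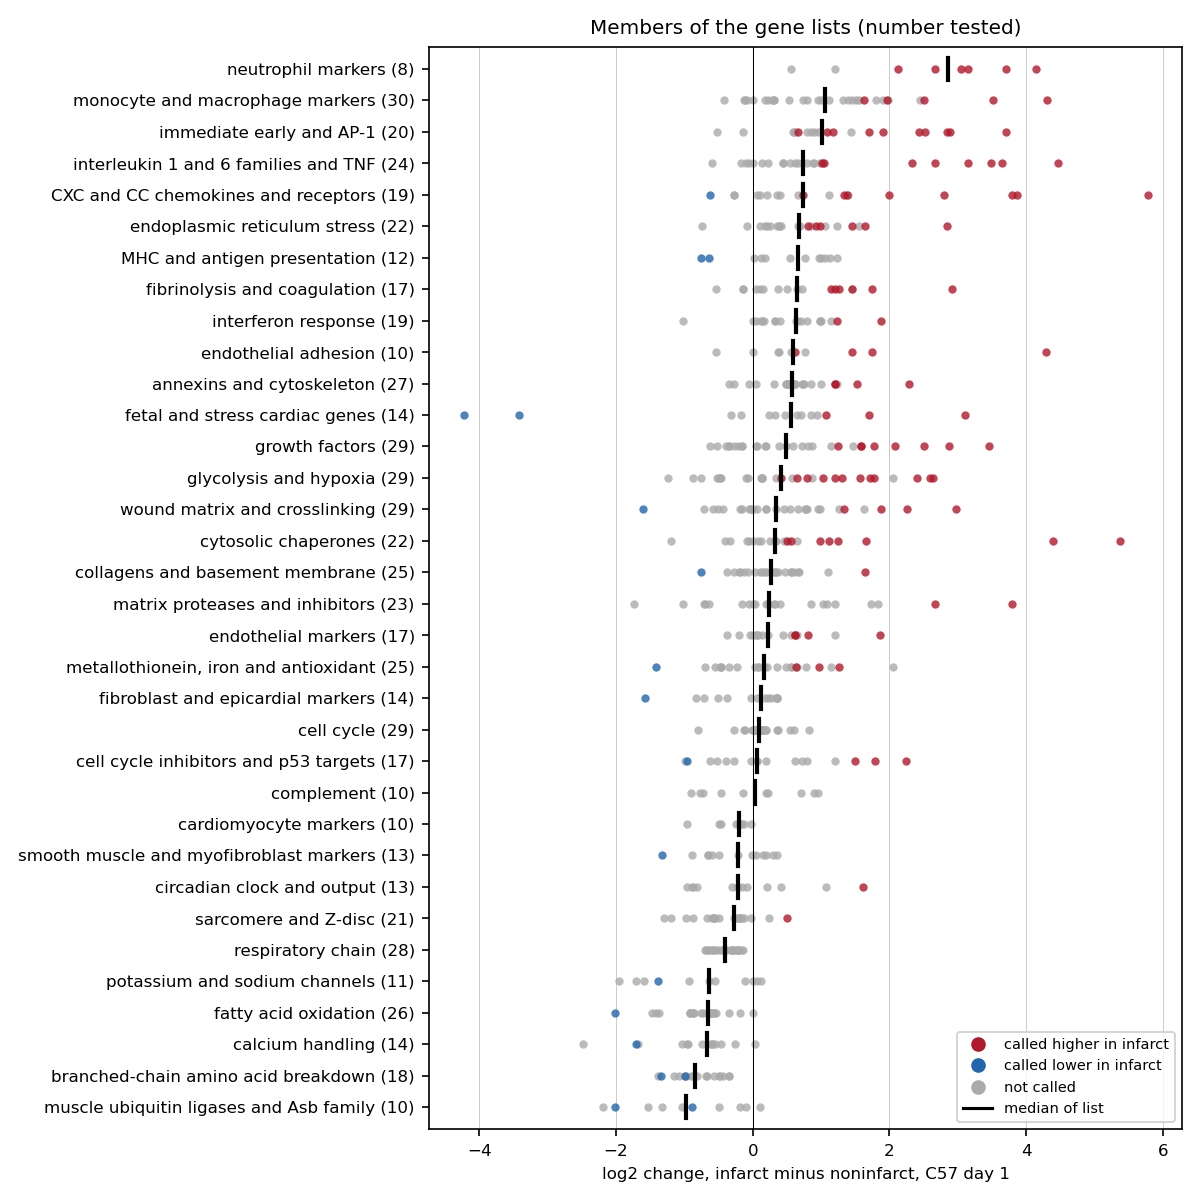
Change of each tested member of the gene lists, with the number tested in parentheses. The horizontal axis is the log2 change, infarct minus noninfarct; red points were called higher, blue points called lower, grey points not called, and black bars are list medians. Among the lists drawn, neutrophil markers, of which 8 of 17 on the array were tested, have the highest median (2.85), and the lowest are muscle ubiquitin ligases and Asb genes (-0.97) and branched-chain amino acid enzymes (-0.84).

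Of 29 tested growth factors 8 rose and none fell (median 0.48), with members of the activin, epidermal and vascular families among them. Inhbb, a subunit of activin B, had 7.92, 7.46, 9.40 and 9.46 in infarct tissue, against 4.45, 4.57, 4.96 and 6.40 in noninfarct tissue, a rise of 3.46 ± 0.67 (0.0013), and Inhba, a subunit of activin A, rose by 2.08 ± 0.57 (0.023). Pgf, placental growth factor and a ligand of the VEGF receptor Flt1, rose by 2.87 ± 0.45 (9.1e-05). Hbegf and Ereg, ligands of the epidermal growth factor receptor, rose by 2.51 ± 0.55 (0.0047) and 1.77 ± 0.27 (7e-05). Angpt2, the destabilising Tie2 ligand, rose by 1.59 ± 0.37 (0.0074) and the peptide Apln by 1.58 ± 0.37 (0.0072). Hbegf was also high on noninfarct replicates 2 and 4, at 10.25 and 10.57, against 7.96 and 8.15 on replicates 1 and 3. The calls of Inhba, Angpt2 and Apln ended without infarct replicate 3 (adjusted p 0.16, 0.08 and 0.077), and without infarct replicate 4 or noninfarct replicate 3 that of Inhba (0.12 and 0.06), and without noninfarct replicate 1 those of Inhba and Apln (0.072 and 0.059). Angpt2 and Ereg changed by 0.53 and 0.84 with 32 added.

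A few genes of early wound matrix rose. Thbs1, thrombospondin 1, had 9.77, 9.91, 10.23 and 8.82 in infarct tissue, against 6.48, 7.34, 5.81 and 7.20 in noninfarct tissue, a rise of 2.97 ± 0.70 (0.0087). Tnc, tenascin C, had 6.25, 7.36, 10.11 and 8.45 in infarct tissue and 5.49, 8.04, 5.45 and 4.13 in noninfarct tissue. It rose by 2.26 ± 0.70 (0.041), with noninfarct replicate 2 above infarct replicates 1 and 2. The hyaluronan receptor Cd44 rose by 1.88 ± 0.57 (0.037) and the matricellular Ccn1 by 1.34 ± 0.38 (0.025). The aggrecanase Adamts4 rose by 2.67 ± 0.52 (0.0015), and Nid2 of the basement membrane by 1.64 ± 0.46 (0.024). In the wound matrix list 4 of 29 rose and 1 fell (median 0.34), in the protease list 2 of 23 rose and none fell (0.24), and in the collagen and basement membrane list 1 of 25 rose and 1 fell (0.27). The collagen counts lie near the shares over all genes tested, of which 4.1% rose and 3.45% fell. Col1a1 differed by 0.18 ± 0.47 and Col3a1 by 0.34 ± 0.51. Cytoskeletal genes added Tubb6 (2.29 ± 0.52, adjusted p 0.0065), Tmsb10 (1.52 ± 0.43, 0.026) and Actg1 (1.21 ± 0.29, 0.0092), and with Anxa2 4 of 27 tested genes of that list rose. Without infarct replicate 3 the calls of Tnc, Cd44, Ccn1, Nid2, Tubb6, Tmsb10 and Actg1 ended (0.053 to 0.25), and all but those of Tubb6 and Actg1 also ended without infarct replicate 4 (0.055 to 0.15). Without noninfarct replicates 1, 3 or 4, or without infarct replicate 1, some of the same calls ended (0.054 to 0.15). Those of Thbs1 and Adamts4 held without any of the 8 arrays. Tnc was not called without the filter (0.072) or with 16 or 32 added (0.054 and 0.07), and Cd44 not without the filter (0.064). With 32 added Nid2 changed by 0.94.

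Atrial light chains showed the largest falls, and their values in unoperated hearts ran the same way. Myl7, the atrial regulatory light chain, had 2.99, 2.64, 2.72 and 2.80 in infarct tissue, against 8.00, 6.21, 6.62 and 7.23 in noninfarct tissue, a fall of 4.23 on the log2 scale (SE 0.98, adjusted p 0.0074). Its infarct arrays lay near the floor, and the change was -2.68 with 16 added and -2.08 with 32 added. Myl4, the atrial essential light chain, fell by 3.42 (SE 0.85, adjusted p 0.012), with its other probe set at 0.06, and lost its call without noninfarct replicate 1 (0.053). Sln, sarcolipin of the atrium, differed by -2.48 ± 0.90 (0.08). In unoperated C57 hearts Myl7 had 2.80, 2.67 and 2.65 in the infarct region, against 7.93, 8.99 and 7.03 in the noninfarct region. The region differences were -4.23 ± 0.98 at day 1 and -5.27 ± 1.14 at day 0 for Myl7, -3.42 ± 0.85 and -3.32 ± 0.98 for Myl4, and -2.48 ± 0.90 and -2.93 ± 1.04 for Sln, where none of the day 0 values was called. Nppa, whose peptide the atrium also makes, had 12.25, 12.63, 14.15 and 13.43 in infarct tissue and 11.84, 13.45, 12.47 and 11.90 in noninfarct tissue (0.70 ± 0.47, adjusted p 0.35). Of 7 tested atrial markers 2 fell and none rose. How much atrium the noninfarct tissue held was not tested.

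Of 14 tested fetal and stress genes of heart muscle 3 rose and 2 fell (median 0.56). The falls were Myl7 and Myl4, and the rises were Ankrd2, Flnc and Xirp1. Ankrd2, a stretch-responsive ankyrin repeat protein, had 7.61, 7.86, 9.33 and 9.46 in infarct tissue, against 3.35, 6.98, 5.25 and 6.24 in noninfarct tissue, a rise of 3.11 ± 0.52 (0.0002). Flnc, muscle filamin, rose by 1.70 ± 0.30 (0.00046) and Xirp1, which marks damaged intercalated discs and myofibrils, by 1.07 ± 0.32 (0.033). The natriuretic peptide gene Nppb had 13.33, 12.83, 13.26 and 13.04 in infarct tissue and 10.78, 13.31, 12.40 and 12.55 in noninfarct tissue, and the difference of 0.85 ± 0.39 was not called (0.16). The fetal myosin Myh7 had 6.69, 8.13, 10.14 and 10.17 in infarct tissue and 7.27, 10.26, 9.36 and 6.98 in noninfarct tissue, with full overlap (0.32 ± 0.81, 0.84). Of 21 tested sarcomere genes 1 rose (Cryab) and none fell, while 19 changed downwards (median -0.27). Their list median was -0.04, -0.04, -0.68 and -0.50 on infarct replicates 1 to 4, against -0.10 to 0.07 on noninfarct arrays. Without the 3 day 5 arrays that stood apart 4 fell, where 1263 of all 13138 probe sets did. Single values were near 0 for some, with the adult myosin Myh6 at -0.25 ± 0.28 and the actin Actc1 at -0.02 ± 0.12. The other probe set of Myh6 changed by -1.3 and was not called. Xirp1 lost its call without infarct replicates 1, 3 or 4 or noninfarct replicates 1 or 3 (adjusted p 0.058 to 0.15) and without the filter (0.054).

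Calcium handling, potassium channel and metabolic genes lay lower in infarct tissue as groups, but few were called singly. The list medians were -0.67 for calcium handling (1 of 14 fell), -0.64 for potassium and sodium channels (1 of 11), -0.66 for fatty acid oxidation (1 of 26), -0.40 for the respiratory chain (0 of 28), -0.84 for branched-chain amino acid breakdown (2 of 18) and -0.97 for muscle ubiquitin ligases and Asb genes (2 of 10), against -0.02 over all genes tested, and no gene of these 6 lists rose. Over all genes tested 3.45% fell, so several of these counts lie near that share. All 28 respiratory chain genes and all 18 branched-chain amino acid genes had a negative change. Relative to noninfarct means, the 6 list medians were lowest on infarct replicates 3 and 4. On infarct replicates 1 to 4 the respiratory chain stood at -0.11, -0.10, -0.81 and -0.48, against -0.21 to 0.11 on noninfarct arrays. Channels stood at -0.13, -0.29, -1.06 and -0.98, against -0.08 to 0.08. Branched-chain amino acid genes stood at -0.49, -0.39, -1.42 and -0.88, against -0.25 to 0.28. Without the 3 day 5 arrays that stood apart the counts that fell became 7 for calcium handling, 5 for channels, 20 for fatty acid oxidation, 7 for the respiratory chain, 13 for branched-chain amino acids and 5 for ubiquitin ligases. In that setting 1263 of all 13138 probe sets fell, against 444 in the main fit. The called genes were the junctional protein Jph2 (-1.71 ± 0.47, adjusted p 0.023), the background potassium channel Kcnk3 (-1.39 ± 0.38, 0.021), the thioesterase Acot1 (-2.02 ± 0.45, 0.0049), methylmalonyl-CoA mutase Mmut (-0.99 ± 0.28, 0.024, probe sets up to -0.01), the mitochondrial transaminase Bcat2 (-1.34 ± 0.41, 0.037), the ubiquitin ligase subunit Fbxo32, atrogin-1 (-2.02 ± 0.52, 0.016), and its activator Foxo3 (-0.89 ± 0.23, 0.016). The nuclear receptor Ppara (-1.48 ± 0.49, 0.057), the channel subunit Kcnip2 (-1.71 ± 0.76, 0.15), Asb10 (-2.19 ± 0.72, 0.055) and phospholamban Pln (-0.96 ± 0.39, 0.12) were not called. Of the called ones all lost their call without infarct replicate 3 (0.054 to 0.16), and all but Acot1 without noninfarct replicate 1 (0.057 to 0.086). Infarct replicates 1 and 4 and noninfarct replicates 2, 3 and 4 ended some of them (0.054 to 0.14). Bcat2 was not called without the filter (0.063), and with 32 added it changed by -0.88.

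The other large falls came from genes of varied function. Irs1, insulin receptor substrate 1, had 7.34, 7.94, 5.29 and 6.24 in infarct tissue, against 9.21, 8.35, 9.49 and 8.52 in noninfarct tissue, a fall of 2.19 (SE 0.48, adjusted p 0.0041). Retsat, a retinol saturase, had 5.63, 6.02, 4.54 and 5.39 in infarct tissue, against 7.81, 7.09, 8.42 and 7.40 in noninfarct tissue, a fall of 2.28 (SE 0.44, adjusted p 0.0014). Neither overlapped, and infarct replicate 3 was the lowest array for both. The small membrane protein gene Smim27 fell by 2.28 (SE 0.36, adjusted p 1e-04) and the glutamine transporter Slc38a3 by 1.99 (SE 0.54, adjusted p 0.021). For some genes the day 0 values lay nearer to infarct tissue than to noninfarct tissue. Acot1 had 6.17, 7.20, 4.83 and 6.81 in infarct tissue, against 8.65, 7.88, 9.14 and 7.44 in noninfarct tissue, where unoperated hearts had 5.29 to 5.71 in the infarct region and 5.49 to 5.75 in the noninfarct region. Its change against day 0 was 0.72 (adjusted p 0.3) in infarct tissue and 2.70 (0.00063) in noninfarct tissue. Spock2, a matrix proteoglycan, fell between the regions by 1.80 (SE 0.48, adjusted p 0.02), with changes against day 0 of 0.57 (0.47) in infarct tissue and 2.32 (0.0082) in noninfarct tissue, and Fah, the last enzyme of tyrosine breakdown, fell by 2.01 (SE 0.39, adjusted p 0.0013), with -0.42 (0.5) and 1.43 (0.055). Irs1, by contrast, changed by -2.02 (0.0039) in infarct tissue and -0.03 (1) in noninfarct tissue. Without infarct replicate 3 the calls of Acot1, Slc38a3 and Spock2 ended (0.054, 0.13 and 0.11), and without noninfarct replicates 1 or 3 those of Slc38a3 (0.068 in both) and Spock2 (0.076 and 0.05). With 32 added the changes of Smim27, Fah, Slc38a3 and Spock2 were -0.77, -1.27, -1.26 and -1.07.

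Some genes of matrix, fibroblasts and smooth muscle fell, while few members of the marker lists of these cells were called. Prelp, a leucine-rich proteoglycan that anchors basement membranes, had 6.03, 5.78, 4.51 and 5.62 in infarct tissue, against 7.48, 7.87, 8.14 and 6.74 in noninfarct tissue, a fall of 2.07 (SE 0.28, adjusted p 8.4e-06), while its other probe set changed by -0.36. Pi16, a marker of quiescent adventitial fibroblasts, had 7.27, 7.54, 6.49 and 7.13 in infarct tissue, against 8.76, 8.45, 8.89 and 8.65 in noninfarct tissue, a fall of 1.58 (SE 0.25, adjusted p 7.7e-05). Neither gene overlapped between the tissues. The protease Htra3 fell by 2.02 (SE 0.48, adjusted p 0.0087), which rested on infarct replicate 3 (4.38, against 7.18 to 7.51 on the other infarct arrays and 7.88 to 9.58 in noninfarct tissue). The proteoglycan Ogn fell by 1.60 (0.014), the elastic fibre protein Fbln5 by 1.44 (0.0079), the laminin chain Lama2 by 0.75 (0.048) and the smooth muscle myosin Myh11 by 1.32 (0.0074). Of 14 fibroblast and epicardial markers 1 fell (Pi16) and none rose (median 0.12), and of 13 smooth muscle markers 1 fell (Myh11) and none rose (-0.21), with the smooth muscle actin Acta2 at -0.21 ± 0.27. Il15, a cytokine for natural killer and T cells, fell by 1.83 (SE 0.47, adjusted p 0.016). Without infarct replicate 3 the calls of Htra3, Ogn, Fbln5, Lama2, Myh11 and Il15 ended (0.056 to 0.32). Without infarct replicate 4 those of Fbln5, Lama2 and Myh11 ended (0.056 to 0.11), without noninfarct replicate 3 those of Htra3, Il15 and Lama2 (0.051 to 0.13), without noninfarct replicate 1 those of Il15 and Lama2 (0.061 and 0.16) and without noninfarct replicate 4 that of Lama2 (0.084). Lama2 was also not called with quantile normalisation or without the filter (0.073 in both). Il15 and Myh11 changed by -1.13 and -0.79 with 32 added.

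Smaller groups gave scattered calls. Among 19 interferon-induced genes 2 rose and none fell (median 0.63): Ifit1 by 1.88 ± 0.55 (0.032) and the guanylate-binding protein Gbp3 by 1.23 ± 0.28 (0.0065). Against day 0 the median of this list was -0.11 in infarct tissue and -0.83 in noninfarct tissue. The positive region median thus came with no rise of the list above day 0 in infarct tissue. Gbp3 lay below its day 0 level in both tissues, by -0.96 in infarct tissue and -2.22 in noninfarct tissue. Of 12 antigen presentation genes none rose and 2 fell, the peptide transporter Tap2 by 0.64 (0.026) and the immunoproteasome subunit Psmb10 by 0.75 (0.038), although the list median was 0.66. Against day 0 the median of that list was -0.19 in infarct tissue and -0.48 in noninfarct tissue. Of 25 metal and antioxidant genes 3 rose and 1 fell (0.17): the sulfiredoxin Srxn1 by 1.26 ± 0.38 (0.037), thioredoxin reductase Txnrd1 by 0.97 ± 0.26 (0.018), the metal importer Slc39a14 by 0.64 ± 0.20 (0.044), and the iron exporter Slc40a1 fell by 1.42 (SE 0.45, adjusted p 0.044). No complement gene of 10 was called (median 0.03). Lymphocyte genes were near the floor: 2 of 12 T lymphocyte markers and 3 of 7 B lymphocyte markers on the array passed the filter on low values and none was called. Each of these 8 calls ended without at least 1 single array, those of Ifit1, Gbp3, Tap2, Srxn1, Txnrd1, Slc39a14 and Slc40a1 without infarct replicate 3 (0.071 to 0.23), and those of Ifit1, Tap2, Psmb10, Srxn1, Slc39a14 and Slc40a1 without infarct replicate 4 (0.052 to 0.12) or noninfarct replicate 3 (0.064 to 0.19). Infarct replicates 1 and 2 and noninfarct replicates 1, 2 and 4 ended some of them (0.06 to 0.18). Without the filter the calls of Ifit1, Psmb10, Srxn1, Slc39a14 and Slc40a1 ended (0.057 to 0.075), with 32 added those of Ifit1, Gbp3 and Tap2 (changes of 0.57, 0.53 and -0.32, adjusted p 0.06 to 0.097), with 16 added those of Ifit1 and Tap2 (0.073 and 0.051), with weights those of Slc39a14 and Psmb10 (0.079 and 0.086), with centring that of Slc39a14 (0.088) and with the replicate block that of Slc40a1 (0.054).

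A group of injury genes stood above day 0 in both tissues at day 1, with region differences that did not pass the test as fitted here. Timp1, an inhibitor of metalloproteinases, had 8.27, 10.04, 11.17 and 10.67 in infarct tissue and 8.34, 9.16, 8.47 and 7.26 in noninfarct tissue. The arrays overlapped through infarct replicate 1, and the difference of 1.73 ± 0.61 was not called (0.075), with an adjusted p of 0.016 without that array. Hmox1, heme oxygenase 1, differed by 2.05 ± 0.70 (0.062, or 0.028 without infarct replicate 1) and Cdkn1a, the p53 target p21, by 0.72 ± 0.47 (0.34). Against day 0, infarct tissue and noninfarct tissue stood 7.32 and 5.50 higher for Timp1, 5.21 and 3.35 higher for Hmox1, and 4.04 and 3.63 higher for Cdkn1a. Timp1 and Hmox1 were called between the tissues without the 3 day 5 arrays that stood apart (0.027 and 0.011) and with array weights (0.01 and 0.015). The replicate block gave 0.028 and 0.011, but it pairs arrays by number alone and may join different hearts. With Lcn2, described with the neutrophil genes, these 4 genes stood at least 3.35 above day 0 in noninfarct tissue. Selp and Slc2a3, by contrast, stood 4.33 and 3.87 higher in infarct tissue and 0.06 and 0.05 higher in noninfarct tissue.

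**Figure D4:**
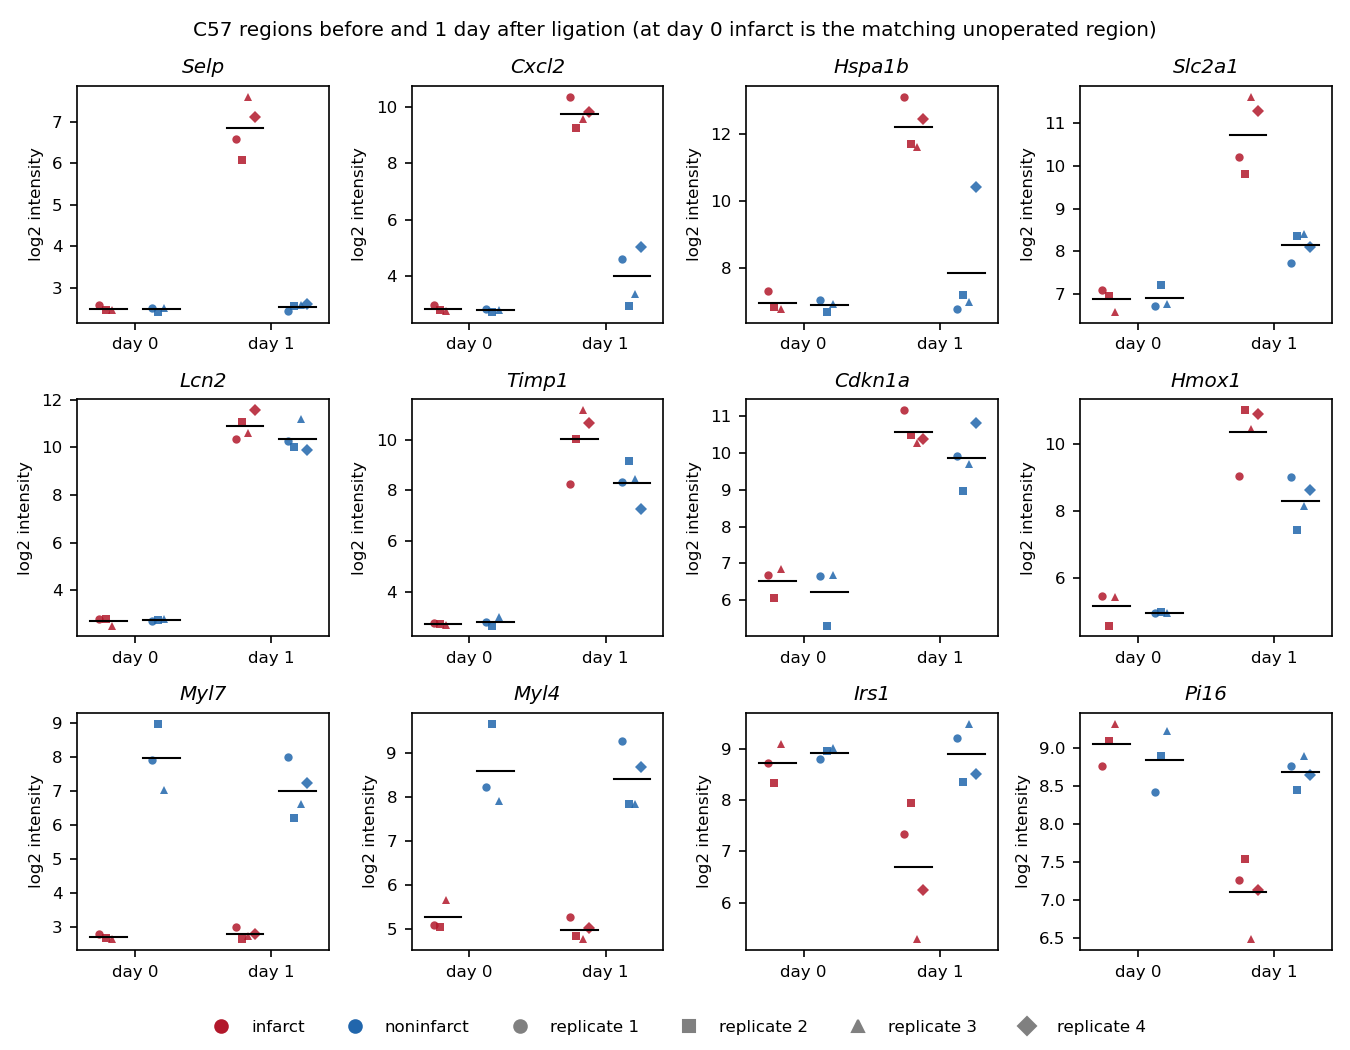
Values of 12 genes on C57 arrays at day 0 (3 per region) and day 1 (4 per region), infarct left of noninfarct at each day. The vertical axes are log2 intensity, points are arrays and bars are group means; Selp, Cxcl2, Hspa1b and Slc2a1 are high in infarct tissue at day 1, Lcn2, Timp1, Cdkn1a and Hmox1 are high in both tissues, and Myl7 and Myl4 differ between regions at both days.

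In unoperated hearts no region difference was called. At day 0 limma called 0 of 13138 probe sets between infarct and noninfarct regions of C57 hearts (0%), with 198 at an unadjusted p under 0.05, against 3240 at day 1. The 198 are fewer than chance alone would give, so 0 called does not show that the regions were alike. Myl7, described above, had no overlap between the regions at day 0. The difference of the region differences, day 1 minus day 0, was called for 23 probe sets (0.175%), 21 higher and 2 lower, and for 60 without the 3 arrays that stood apart. By size its leading genes were Cxcl2 (5.73 ± 1.24, adjusted p 0.036), Selp (4.27 ± 0.77, 0.015), Slfn4 (4.14 ± 0.82, 0.018), Ch25h (4.07 ± 0.91, 0.042) and Slc2a3 (3.82 ± 0.82, 0.036), and Pi16 led the falls (-1.80 ± 0.38, 0.036). Il1r2 (3.12, 0.00034) had the lowest adjusted p of the genes named here. The count of 23 fell to 1 without infarct replicate 3, to 8 without infarct replicate 4, to 5 without noninfarct replicate 1 and to 9 without noninfarct replicate 3, and was 47 and 42 without infarct replicates 1 and 2.

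The same comparison in MRL hearts gave calls in the same directions. In C57, 516 probe sets were higher and 444 lower, and in MRL 583 (4.44%) and 636 (4.84%), 9.28% in all. They shared 305 higher ones, 59.1% of the C57 calls and 52.3% of the MRL calls, and 197 lower ones, 44.4% and 31% of each, with 0 called in opposite directions. The median change of the C57 higher probe sets was 1.22 in C57 and 1.01 in MRL, and that of the lower ones -0.92 and -0.72. Limma called 0 probe sets for the difference between the strains, C57 minus MRL, while 1 was called with the replicate block and 4 with array weights. An unadjusted p under 0.05 was reached by 192, again fewer than chance alone would give. Thus 0 called does not show that the strains were alike. The intervals were wide. Cxcl2 changed by 5.78 ± 0.81 in C57 and 3.24 ± 0.81 in MRL, a difference of 2.54 (95% interval 0.21 to 4.86, adjusted p 1). Il1r2 changed by 3.15 ± 0.29 in C57 and 1.32 ± 0.29 in MRL, a difference of 1.83 (0.99 to 2.67, adjusted p 0.7). For Il15 the changes were -1.83 ± 0.47 and -0.11 ± 0.47, a difference of -1.72 (-3.08 to -0.36, adjusted p 1), and for Ddit3 0.99 ± 0.21 and -0.22 ± 0.21, a difference of 1.21 (0.62 to 1.81, adjusted p 0.7). Slfn4, Adam8 and Arg1 differed by 0.25, 0.05 and 0.13 between the strains.

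**Figure D5:**
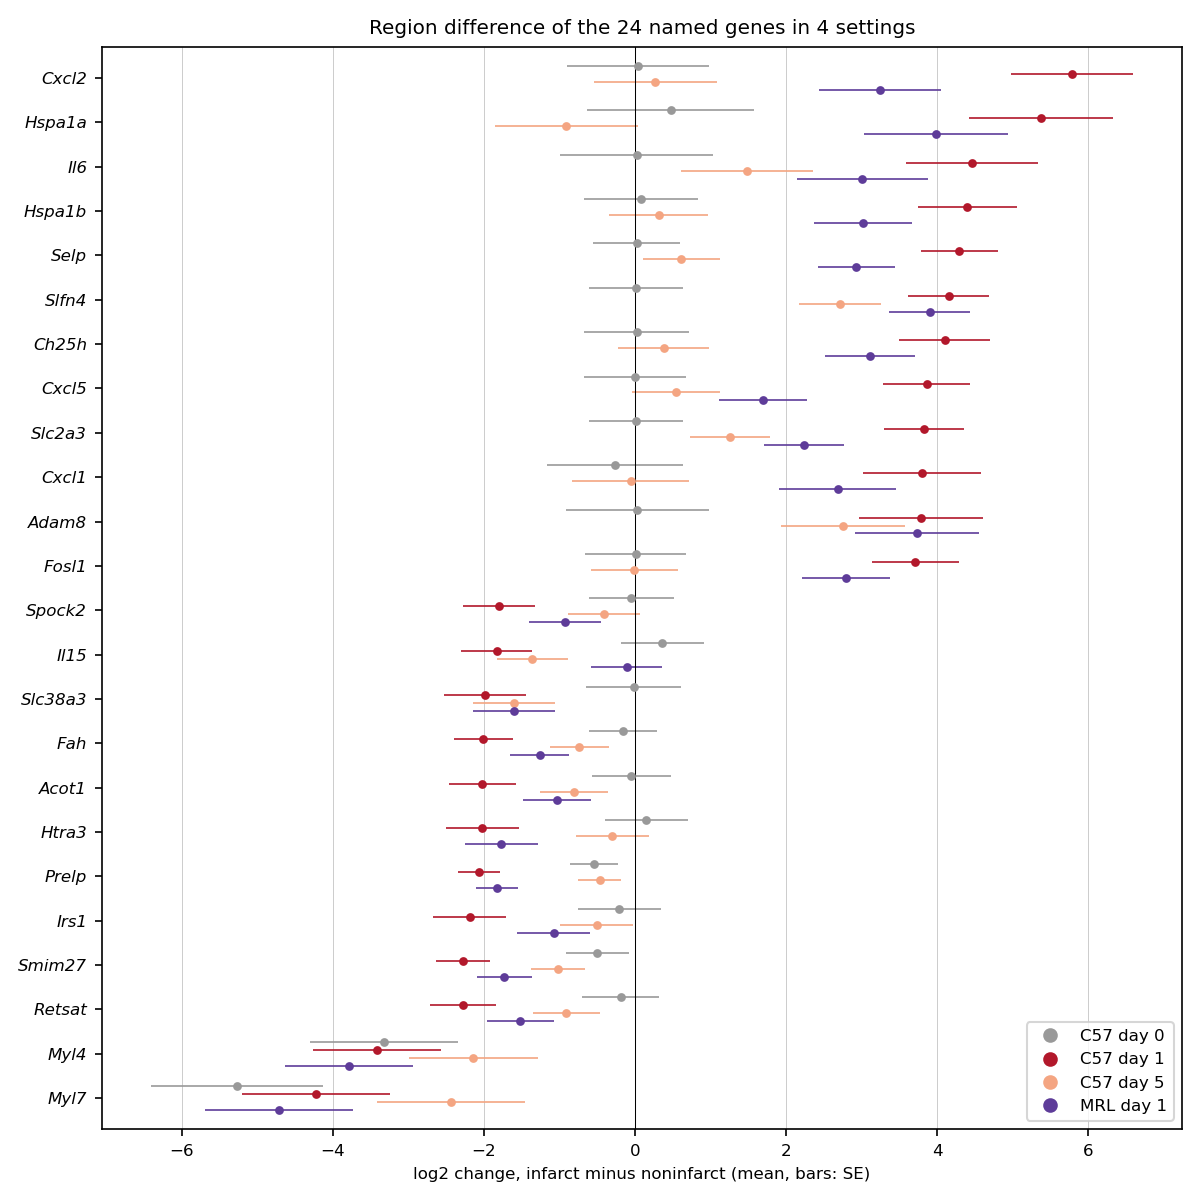
Region difference of the 24 genes with the largest rises and falls at C57 day 1, in C57 hearts at day 0, day 1 and day 5 and in MRL hearts at day 1. The horizontal axis is the log2 change, infarct minus noninfarct, with bars of 1 SE; the 12 rises lie between -0.27 and 0.47 at day 0 and stay above 1.6 in MRL at day 1, while Myl7 and Myl4 lie below 0 in all 4 settings.

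A minority of the day 1 calls was also called at day 5. In C57, 664 probe sets were higher (5.05%) and 457 lower (3.48%) at day 5, 8.53% in all. Of the day 1 calls, 69 higher ones (13.4% of day 1, 10.4% of day 5) and 33 lower ones (7.43% and 7.22%) were called the same way. Without the 3 arrays that stood apart (C57 day 5 infarct replicate 1 and noninfarct replicate 3, and MRL day 5 infarct replicate 3), 212 and 189 were shared, of 2905 higher and 2284 lower ones called then. The change of the region difference, day 5 minus day 1, was called for 82 probe sets (0.624%) with these arrays and for 1855 without them. Among the genes named, the region difference fell most to day 5 for Hspa1a (-6.27 ± 1.34, adjusted p 0.014), Cxcl2 (-5.51 ± 1.15, 0.012), Hspa1b (-4.08 ± 0.92, 0.023), Ankrd2 (-3.75 ± 0.74, 0.0074), and Fosl1 and Ch25h (-3.72 ± 0.83, 0.021 and -3.72 ± 0.84, 0.023). Without the arrays that stood apart they were -6.58, -5.40, -4.09, -3.54, -3.71 and -3.20, with adjusted p of 0.002 to 0.013. Cxcl2 thus had a region difference of 0.04 ± 0.94 at day 0, 5.78 ± 0.81 at day 1 and 0.27 ± 0.81 at day 5. The genes whose region difference grew most to day 5 were the macrophage receptor genes Ly86 (3.13 ± 0.78, adjusted p 0.045, or 4.24 without those arrays) and Fcgr4 (2.97 ± 0.44, 0.00015, or 3.23), the cartilage matrix gene Comp (2.66 ± 0.40, 0.00021, or 2.81), Trim34a (2.32 ± 0.56, 0.033, or 1.91) and Fbln5 (2.17 ± 0.48, 0.019, or 2.59). At day 1 Fcgr4 and Ly86 were below every array median in both tissues. Comp and Fbln5 were lower in infarct tissue at day 1. Comp fell by 1.03 (SE 0.28, adjusted p 0.022) with all infarct arrays below their array medians, a call that ended without infarct replicate 3 (0.1), noninfarct replicates 2 or 3 (0.051 and 0.074) or with offsets of 16 or 32 (-0.48, adjusted p 0.13, and -0.32, 0.24) or array weights (0.054). Slfn4 and Adam8 kept high region differences at day 5, of 2.71 ± 0.54 (0.0022) and 2.75 ± 0.82 (0.038), or 3.26 and 4.30 without the arrays that stood apart.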

How the data were processed

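RNA of left ventricular tissue was measured on Affymetrix MOE430A arrays, 1 array per sample. The authors corrected, normalised and summarised intensity with GCRMA, per the submitters' processing notes, whose version is not given in the sources used here. The deposited intensity is linear (smallest value 1.03), and log2 was taken here with no pseudocount. GCRMA sets dim probe sets near a floor, so the size of a difference from such a group depends on how low values are treated.

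Of 22690 probe sets 64 controls were left out, and 13138 above their array's median on at least 3 of 46 arrays were tested. Limma 3.58.1 (R 4.3.3; lmFit, eBayes, 12 group means, two-sided) gave changes, and Benjamini-Hochberg adjusted p under 0.05 was the threshold. Names came from the platform annotation: 20380 probe sets had 1 symbol, 691 several and 1555 none. P-values measure the spread between arrays labelled biological replicates, and the number of arrays limits precision. The test was checked on simulated data for the C57 day 1 comparison with 13138 probe sets. It recovered 59.1% of changes of log2 size 1, 94% of size 2 and 100% of size 3, with 9 false calls. The simulated noise was normal, independent between arrays and of the same spread in all groups, with no array that stood apart. The real arrays differ in these respects, so the shares and false calls need not hold for them.

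Genes named were the 12 largest rises and falls without overlap, up to 6 called members of each list, a fixed index list and the 5 largest changes of each region difference between settings. Members and lists were chosen with earlier results of these data known. Alternatives were no filter, quantile normalisation, median centring, offsets of 16 and 32, the 8 arrays alone, leaving out arrays that stood apart or each of the 8 arrays, a replicate block, array weights and another choice of probe set.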

Additional observations from a re-analysis of the deposited data

Results flagged for a closer look

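Of 304 groups of 4 arrays checked (the infarct and the noninfarct arrays of each gene named), 15 had an array far from the other 3, and chance gives about 1 in 20 such groups. Noninfarct replicate 4 had 8.24 for Hspa1a (the others 3.88 to 4.34), 10.42 for Hspa1b (the others 6.77 to 7.18), 5.21 for Il6 (the others 3.15 to 3.36) and 7.65 for Adm (the others 6.88 to 6.98). Noninfarct replicate 2 had 3.04 for Slfn4 (the others 1.75 to 1.82), 9.69 for Nfkbia (the others 10.49 to 10.65), 7.45 for Arg1 (the others 2.27 to 3.11) and 7.23 for Cd44 (the others 6.07 to 6.20). Infarct replicate 3 had 4.38 for Htra3 (the others 7.18 to 7.51) and 2.97 for Comp (the others 3.33 to 3.38). Noninfarct replicate 3 had 3.41 for Cd14 (the others 4.61 to 4.69) and 9.41 for Kcnk3 (the others 9.82 to 9.88). Noninfarct replicate 1 had 6.70 for Dnajb1 (the others 7.29 to 7.40) and 7.02 for Bhlhe40 (the others 7.75 to 7.90). Infarct replicate 1 had 10.22 for Hk1 (the others 10.77 to 10.80).

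The region difference at day 1 differed from that at day 0 by limma's test of the difference, given as log2 change and adjusted p, for Cxcl2 (5.73, 0.036), Selp (4.27, 0.015), Slfn4 (4.14, 0.018), Ch25h (4.07, 0.042), Slc2a3 (3.82, 0.036), Il1b (3.70, 0.043), Il1r2 (3.12, 0.00034), Adm (2.61, 0.036), Slc2a1 (2.61, 0.027), Plaur (2.80, 0.036) and Pi16 (-1.80, 0.036).

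The region difference at day 5 was below that at day 1 by the same test for Cxcl2 (-5.51, 0.012), Hspa1a (-6.27, 0.014), Hspa1b (-4.08, 0.023), Selp (-3.68, 0.0073), Ch25h (-3.72, 0.023), Cxcl5 (-3.32, 0.042), Fosl1 (-3.72, 0.021), Il1r2 (-3.07, 3.1e-05) and Clcf1 (-1.17, 0.042). It was also below it for Trib3 (-1.48, 0.042), Adm (-2.62, 0.0073), Slc2a1 (-2.15, 0.024), Egln3 (-2.74, 0.00071), Plaur (-2.62, 0.013), Thbd (-1.79, 0.032), Ankrd2 (-3.75, 0.0074) and Flnc (-1.85, 0.024). It was above that at day 1 for Prelp (1.60, 0.04), Fbln5 (2.17, 0.019), Fcgr4 (2.97, 0.00015), Ly86 (3.13, 0.045), Comp (2.66, 0.00021) and Trim34a (2.32, 0.033). These differences share the day 1 arrays.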

How the results depend on the processing

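All 960 called probe sets kept their sign under every alternative run, but their number varied. Changes stay fixed without the filter, on the 8 arrays alone, without the 3 day 5 arrays and with the replicate block. A sign could therefore turn only under the other alternatives. The count was 746 without the filter, 978 with quantile normalisation, 940 with arrays centred on their medians, 985 and 979 with offsets of 16 and 32, 99 on the 8 arrays alone (86 higher, 13 lower), 2198 without the 3 day 5 arrays that stood apart (935 and 1263), 1669 with the replicate block (838 and 831) and 1976 with array weights (895 and 1081). Leaving out 1 array gave 282 to 1930, with 189 to 919 higher and 93 to 1011 lower. Centring moved the share of higher calls to 43.8%, against 53.8%, and the median of all probe sets to -0.07. In all, 77 probe sets (69 higher, 8 lower) were called under all 17 alternatives, and 195 (154 and 41) without each of the 8 arrays. The count for day 1 minus day 0 was 23, and 17, 21, 14, 27, 20, 60, 139 and 326 without the filter, with quantile, centring, both offsets, without the arrays apart, with the replicate block and with weights, and 1 to 47 leaving out 1 array. That for day 5 minus day 1 was 82, and 86, 104, 83, 95, 98, 1855, 243 and 613 in the same order, and 43 to 122 leaving out 1 array. The C57 minus MRL count was 0, with 1 without the arrays apart, 1 with the block, 4 with weights, and 0 to 1 leaving out 1 array. Same-numbered arrays correlated at 0.10, -0.46, 0.15 and -0.27, and 0 of 4 infarct arrays correlated best with its own number. Infarct replicates 1, 2, 3 and 4 correlated best with noninfarct replicates 4, 1, 2 and 3, at 0.54, 0.50, 0.59 and 0.28. In the order of the series, infarct replicates 2, 3 and 4 come directly before noninfarct replicates 1, 2 and 3, the same pairs. The replicate block thus rests on numbers alone and may join arrays of different hearts. Its counts and adjusted p are therefore no measure of the difference within hearts. A block on the best correlated arrays was not run.

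On the probe set used, signs turned only among genes that were not called; on their other probe set the called genes Cdh5 (-0.37), Pfkfb3 (-0.08) and Myl4 (0.06) had the opposite sign. Myh7 was -0.14, -0.15, -0.08 and -0.18 without infarct replicates 3 or 4 or noninfarct replicates 1 or 4, Actc1 0.06, 0.04 and 0.01 without infarct replicates 3 or 4 or noninfarct replicate 4, Col1a1 -0.06 without infarct replicate 3, and Col3a1 -0.13 and -0.01 without infarct replicate 3 or noninfarct replicate 4. Their ranges over single arrays left out were -0.18 to 1.01, -0.11 to 0.06, -0.06 to 0.40 and -0.13 to 0.75. Pecam1 was -0.07 with centring, -0.27 with weights, and -0.19, -0.13 and -0.17 without infarct replicates 1 or 2 or noninfarct replicate 2, in a range of -0.19 to 0.31. Of 127 called genes named, 58 kept their call without any 1 array and 69 lost it without some array. The cause of these changes was not tested.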
